A study of Mus musculus with 78 samples.

Results

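The comparison covers the livers of Snell dwarf mice: 3 male mutants aged 5 months and 3 littermate controls of the same age and sex, which together make 6 of the 78 liver libraries of the study. These libraries were chosen by their labels alone, and all expressed genes were then compared. The study measured polyadenylated RNA in the liver of mice under interventions that lengthen life. Both groups came from an F2 cross of PW/J and C3H/HeJ mice and ate the same Purina 5LG6 diet, so the dwarfs differed from their controls in genotype and in whatever the segregating cross carried with it. The labels do not say whether the littermates were wild type or heterozygous. Of 43629 genes in the count table, 22306 had no count in any of the 6 libraries and 12528 passed the filter on low counts and were tested.

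Snell dwarfs carry a mutation in Pou1f1 (also called Pit1), the transcription factor that pituitary somatotrophs, lactotrophs and thyrotrophs need. Without it the pituitary makes next to no growth hormone, prolactin or thyroid-stimulating hormone, so the animals are small, hypothyroid and long-lived. In the liver, growth hormone acts through its receptor, JAK2 and STAT5 to drive IGF-1 production, and its pulsatile male pattern of release sets most of the sex differences of liver genes. Thyroid hormone acts through nuclear receptors, mainly the beta form in hepatocytes, and drives genes of lipid synthesis and energy metabolism. Pou1f1 itself (ENSMUSG00000004842, GRCm38 chr16:65520511-65535005, plus strand) is a pituitary gene and checks no label here: it held 0 counts in the 3 dwarf libraries and 1 count in 1 control library. Gh, Prl, Tshb, Pomc and Pou1f1 together held 0 to 3 counts in each library.

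The 6 libraries held 15521588 to 18554591 assigned counts, at the low end of the study's range of 15521588 to 37778510. The first principal component, with 71.6% of the variance, separated all dwarfs from all controls, and the second, with 10.1%, set dwarf 1 (37.5) apart from dwarf 2 (-26.9) and dwarf 3 (-9.01). The defining hepatocyte genes Alb, Apoa1, Apob and others were abundant in all 6 libraries: the 10 hepatocyte markers summed to 161494, 159810 and 184781 CPM (counts per 1e6 counts of the library) in dwarfs 1 to 3 and 100215 to 126341 CPM in the controls. Of these 10 markers Alb and Cyp2e1 rose, and 8 did not pass. In bulk liver, fewer cells of a type and less RNA per cell cannot be told apart.

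Dwarf 1 held RNA of skeletal muscle. Summed over 15 muscle markers, it had 9261 counts, or 0.0526% of the library, whereas the other 5 libraries had 26 to 30 counts. Acta1, the actin of skeletal muscle, had 2564 counts in dwarf 1 and at most 1 in each of the others. Tnnt3, fast troponin T, had 1370 counts in dwarf 1 and 0 elsewhere. Dwarf 1 was the highest library for 14 of the 15 markers, and Tnnc2 was at 0 in all 6. A search made after the values were seen found 45 genes with at least 100 counts in dwarf 1 and more than 10 times the next library; 9 of them were muscle markers, and others were keratinocyte genes such as Krt13 with 2211 counts, Krt4 with 2159 and the cornified-envelope gene Lor with 570. Of these 45 genes 3 passed the filter on low counts and 0 were among the genes called below. Dwarf 1 was also the highest library for the summed markers of some other cells, which follow, but not of all. It was the lowest for cholangiocyte markers, at 34.1 CPM against 37.8 to 54.1 CPM in the other 5 libraries. For erythroid markers it lay between the other dwarfs, at 204 CPM against 120 and 299 CPM. Kupffer cell and macrophage markers were at 531 CPM in dwarf 1, 235 CPM in both other dwarfs and 297 to 446 CPM in the controls. Stellate cell markers were at 309 CPM against 180 to 222 CPM in the other 5 libraries, endothelial markers at 437 against 293 to 411 CPM, and lymphocyte markers at 19.1 against 10.5 to 14.7 CPM. Neutrophil markers were at 7.04, 4.75 and 2.8 CPM in the dwarfs and 1.65 to 2.58 CPM in the controls, so that every dwarf lay above every control. These sums were low, at 124, 76 and 52 counts in the dwarfs and 28 to 40 in the controls. Of 8 neutrophil markers 2 were tested and S100a9 rose (2.65 on the log2 scale, lost without control 1 or control 2). S100a9 is part of the sums, with 100 counts over the dwarfs and 15 over the controls, so its rise is not a separate observation.

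**Figure D1:**
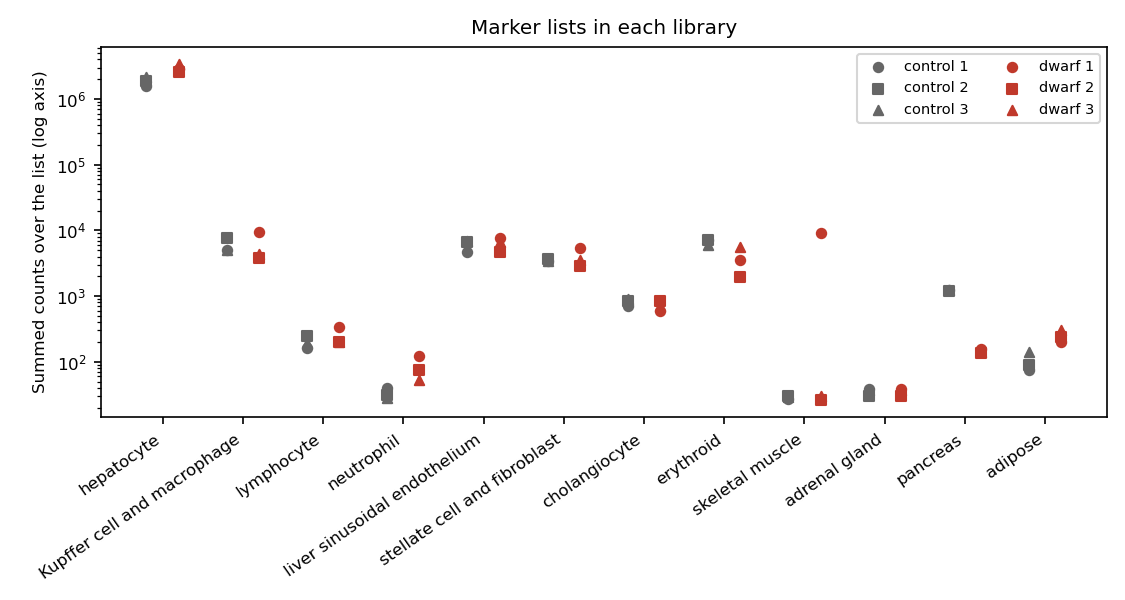
Summed counts (log axis) of 12 marker lists in each of the 6 libraries, controls in grey and dwarfs in red. Skeletal muscle reached 9261 counts in dwarf 1 and 26 to 30 counts in the other libraries.

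The dwarf liver differed from control liver across a large part of the genes measured. By edgeR's quasi-likelihood test with Benjamini-Hochberg adjustment over all genes tested, 2520 of 12528 genes (20.1%) changed at an adjusted p under 0.05, of which 1170 rose (9.34%) and 1350 fell (10.8%). Of these genes 556 rose (4.44%) and 546 fell (4.36%) by at least 2-fold, and 44 rose and 73 fell by at least 32-fold. In 2517 of the 2520 the dwarf and control values did not overlap; over all genes tested the dwarfs lay above every control for 2492 genes (19.9%) and below every control for 2594 (20.7%). The median log2 fold change over all genes tested was 0.013. The count was 2487 without dwarf 1, with 2039 genes shared, and all 2520 genes kept their sign without it. It fell to 1263 without control 1 and to 1406 without control 2, and 1093 of the 2520 genes (43.4%) kept their call when each of the 6 libraries was left out in turn. Below, a gene rose or fell if it passed this test, and log2 fold changes are dwarf minus control with their standard errors. CPM values are scaled by edgeR's TMM factors and listed for replicates 1 to 3 in order. The counts of each gene list stand beside the shares of all genes tested, 9.34% that rose and 10.8% that fell. Some lists, such as glycolysis and the cell cycle, lie near these shares.

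**Figure D2:**
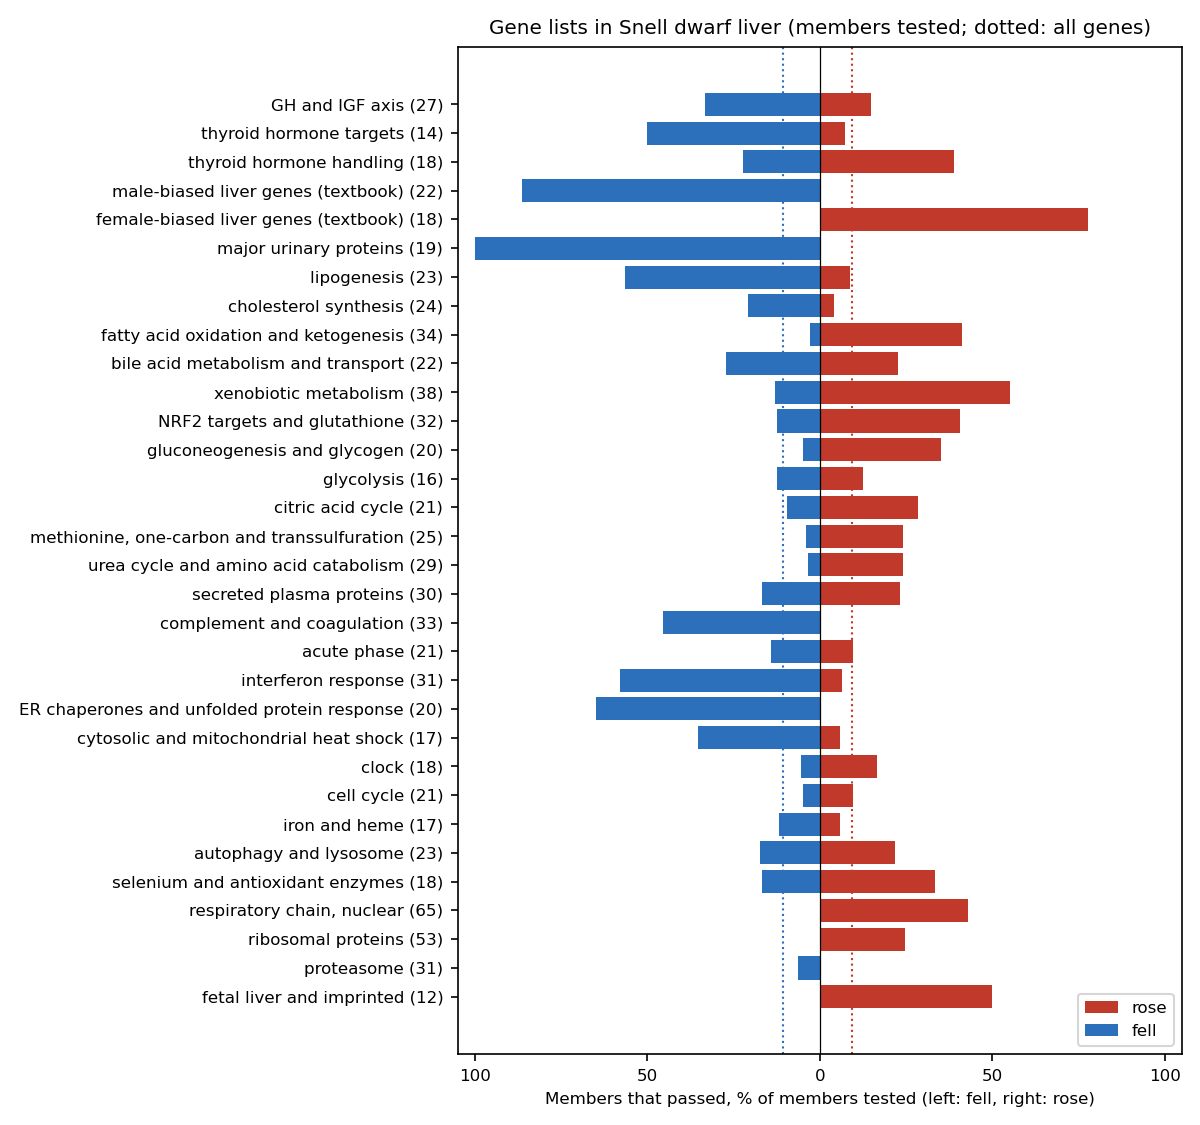
Members of 32 gene lists that rose (red, right) or fell (blue, left), as a percentage of the members tested, whose number stands in brackets. Dotted lines mark the share over all genes tested, 9.34% that rose and 10.8% that fell.

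Igf1, Igfals and Socs2, targets of growth hormone in the liver, fell steeply, while most genes of the list moved less or did not pass. Of 30 genes listed for the growth hormone and IGF axis, 27 were tested: 4 rose, 9 fell and 14 did not pass, with a median log2 fold change of -0.18. Igf1 (GRCm38 chr10:87858265-87937042), the circulating growth factor that liver makes in answer to growth hormone, was at 11.6, 24.2 and 26.9 CPM in the dwarfs and 610, 663 and 586 CPM in the controls. Every dwarf lay far below every control, with a log2 fold change of -4.89 ± 0.33 (adjusted p = 0.00011). Igfals, the acid-labile subunit that holds IGF-1 in a stable complex in blood, was at 2.76, 5.77 and 9.64 CPM against 175, 183 and 179 CPM, a log2 fold change of -4.88 ± 0.42 (adjusted p = 0.000795). Socs2, a feedback inhibitor induced by STAT5, was at 0.774, 1.02 and 0.789 CPM against 11.1, 10.7 and 4.16 CPM (-3.32 ± 0.41, adjusted p = 0.00131). All these genes were lower in each dwarf than in each control. Cish, another feedback inhibitor of the same family, was at 0.221, 0.0635 and 0.338 CPM in the dwarfs and 21.7, 1 and 4.16 CPM in the controls and did not pass (adjusted p = 0.0636).

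The receptors changed unequally. Ghr, the growth hormone receptor, was at 386, 402 and 488 CPM in the dwarfs and 657, 656 and 617 CPM in the controls. That is a fall by 0.60 ± 0.13 on the log2 scale (adjusted p = 0.014), with no overlap between groups, and the call was lost without control 1 or control 2. Egfr, the receptor of epidermal growth factor, was at 24.4, 21.4 and 18.0 CPM against 481, 498 and 407 CPM, a far larger fall (-4.44 ± 0.17, adjusted p = 1.81e-06). Prlr, the prolactin receptor, was at 22.9, 52.2 and 40.0 CPM against 115, 129 and 118 CPM (-1.66 ± 0.27, adjusted p = 0.00663). Lepr, the leptin receptor, went the other way, at 18.5, 8.57 and 5.07 CPM against 0.879, 1.12 and 0.832 CPM (3.49 ± 0.52, adjusted p = 0.00451). Among the transducers Stat5a fell by 1.14 on the log2 scale, and Stat5b, the main form in liver, was at 0.03 ± 0.16 (adjusted p = 0.90). Onecut1 (HNF6), a liver transcription factor, fell by 3.22 on the log2 scale.

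Igfbp1 and Igfbp2, which bind IGFs in blood, rose, and Igfbp3 did not pass. Igfbp1, which fasting and low insulin induce, was at 317, 966 and 329 CPM in the dwarfs and 1.26, 3.71 and 2.79 CPM in the controls. Its log2 fold change was 7.69 ± 0.76 (adjusted p = 0.00232), and dwarf 2 was the highest library. Igfbp2 was at 3276, 2032 and 1402 CPM against 321, 260 and 291 CPM (2.94 ± 0.31, adjusted p = 0.000802). Igfbp3, which is made mostly outside hepatocytes, overlapped between groups, at 7.13, 8.82 and 14.8 CPM against 6.78, 7.65 and 8.73 CPM (0.41 ± 0.27, adjusted p = 0.316).

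**Figure D3:**
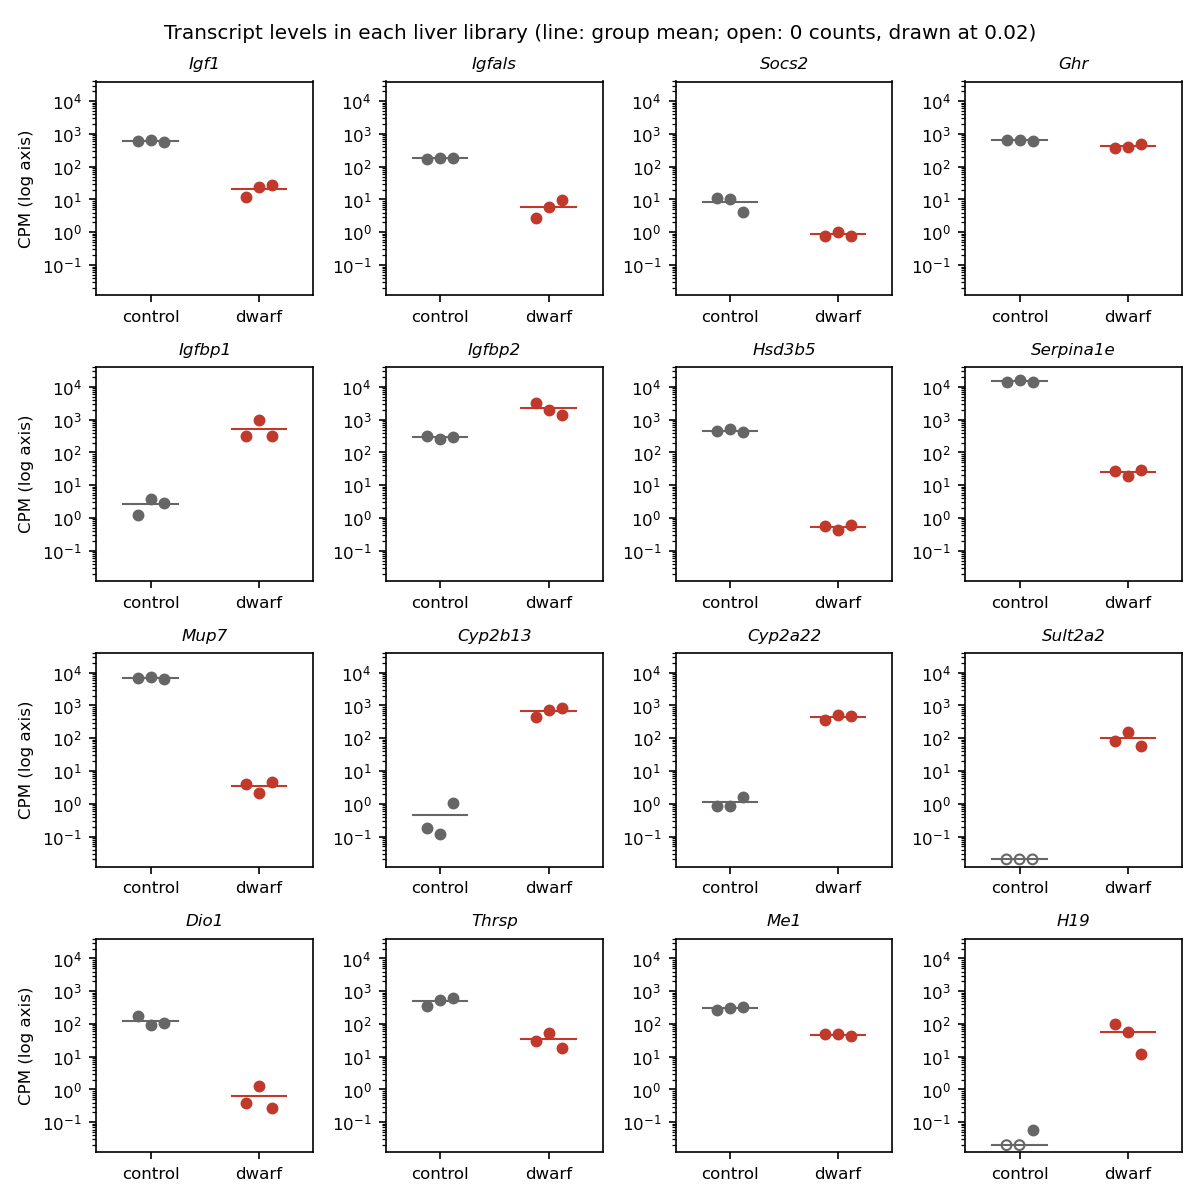
CPM (log axis) of 16 genes in each of the 3 control and 3 dwarf libraries, with a line at each group's mean; open points are libraries with 0 counts, drawn at 0.02. For each of the 16 genes the dwarf points lie wholly above or wholly below the control points.

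In the liver of these males, many genes of the male pattern fell and many of the female pattern rose. Sex-biased genes were taken from other animals, the untreated UM-HET3 control males and females of 6 months (3 each), as those differing at least 2-fold with an adjusted p under 0.05, which 218 of 13350 genes (1.63%) did. Of the 121 male-biased genes, 109 were tested in the dwarfs: 62 fell, 2 rose and 45 did not pass. The 2 that rose were Aifm3 and Snhg11, both calls lost without control 2 or control 3. Thus 51.2% of all 121 members, with the 12 not tested counted in, fell beside 10.8% of all genes tested. Of the 97 female-biased genes, 74 were tested: 45 rose, 4 fell (Ptgds, Apoa4, Acacb and Prlr) and 25 did not pass. Thus 46.4% of all 97 members, with the 23 not tested counted in, rose beside 9.34% of all genes tested. The median log2 fold change was -1.65 for the male-biased and 1.66 for the female-biased genes tested, and the same with genes of an all-zero group set to their bound. With each library left out in turn, 55 to 65 male-biased genes fell and 41 to 44 female-biased genes rose. The labels of the 12-month controls gave other lists with like counts: 66 of 104 male-biased genes fell and 58 of 129 female-biased genes rose. Genes named in other paragraphs are also on the 6-month lists. Egfr is among the male-biased genes that fell, and Lepr, Vldlr, Abcc4, Agt, Cyp2c38 and Nqo1 are among the female-biased genes that rose.

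**Figure D4:**
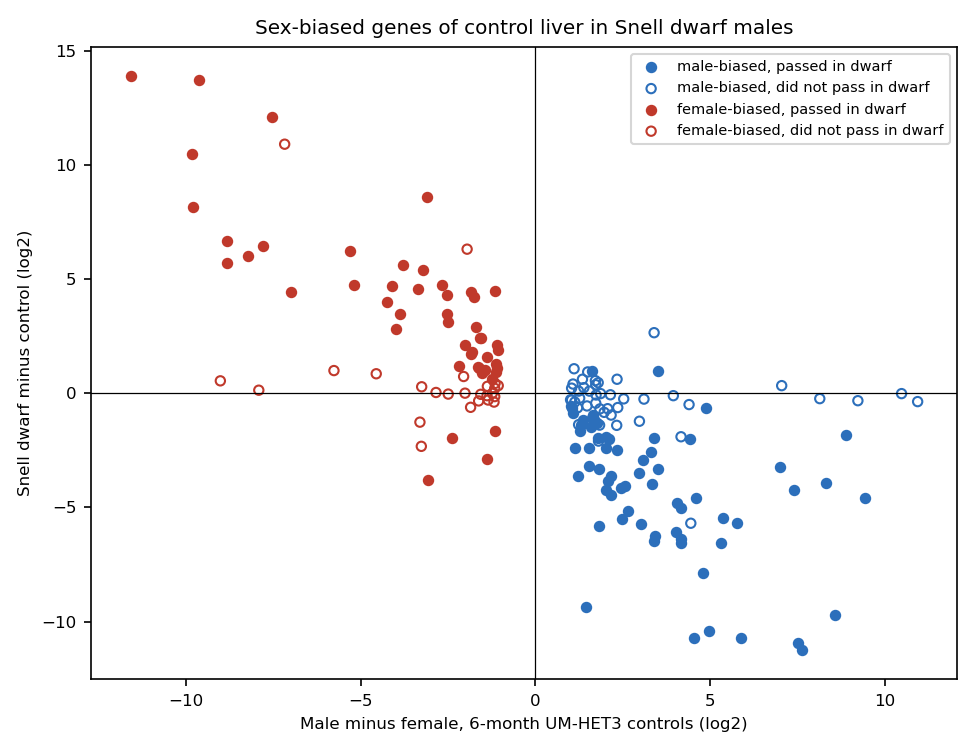
Log2 difference between UM-HET3 control males and females (x axis) and between dwarf and control males (y axis) for the sex-biased genes tested; filled points passed the test in the dwarfs. Of the male-biased genes 62 fell and of the female-biased genes 45 rose.

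Among the male-specific genes, the major urinary proteins, pheromone carriers that male liver secretes for excretion in urine, were nearly lost. All 19 members tested of 22 listed fell, with a median log2 fold change of -10.9, and -10.6 with the 3 genes that had no count in any dwarf set to their bound. Mup7 was at 4.04, 2.16 and 4.51 CPM in the dwarfs and 6933, 7610 and 6447 CPM in the controls (-10.93 ± 0.34, adjusted p = 5.65e-07). Together the 21 Mup genes in the table made up 0.0312% to 0.0494% of all counts in the dwarfs and 3.6% to 5.39% in the controls, and in UM-HET3 animals 0.326% to 0.946% in females and 2.98% to 4.74% in males. The dwarfs lay below the range of these females of another stock, a difference that was not tested. Mup20 (darcin) and Mup21 fell least, by 4.22 and 3.22 on the log2 scale. On total counts these 2 stayed above the UM-HET3 females. Mup20 was at 76.5 to 228 CPM in the dwarfs against 7.83 to 16.8 CPM, and Mup21 at 49.4 to 94.9 CPM against 1.82 to 3.6 CPM. Many Mup genes are near-identical copies on chromosome 4, so counts of a single such copy are uncertain. Mup9 was at 4388 and 5161 CPM in controls 1 and 2 but 62.4 CPM in control 3. It lost its call without any 1 dwarf, control 1 or control 2. Mup18 lost its call without dwarf 1 or control 1 and Mup13 without control 1; 15 to 19 members fell with a library left out in turn, fewest without control 1. Mup18, with no count in the dwarfs, was at least 1262-fold lower.

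Other male-biased genes of known function fell with them. Hsd3b5, a steroid-reducing enzyme of male liver, was at 0.553, 0.444 and 0.620 CPM in the dwarfs and 467, 520 and 416 CPM in the controls (-9.73 ± 0.20, adjusted p = 3.09e-08). Serpina1e, a protease inhibitor of the alpha-1-antitrypsin family, was at 28, 19.5 and 30 CPM against 14101, 16567 and 13771 CPM (-9.16 ± 0.26, adjusted p = 2.85e-07). Elovl3, a fatty acid elongase, was at 0.166, 0 and 0.282 CPM against 388, 196 and 229 CPM (-10.71 ± 0.56). Cyp7b1, an oxysterol and steroid hydroxylase, fell less, at 38.5, 30.7 and 21.8 CPM against 912, 1045 and 619 CPM (-4.82 ± 0.29). Scaled to total counts, Cyp7b1 in the dwarfs (20.9 to 39.6 CPM) was near the level of UM-HET3 females (22.4 to 28.4 CPM). Elovl3 in the dwarfs (at most 0.269 CPM) was below theirs (5.13 to 9.54 CPM). Others stayed far above those females, such as Cyp2d9 at 1001 to 1307 CPM in the dwarfs against 33.6 to 174 CPM. Cyp4a12a was at 99.4 to 403 CPM against 0.438 to 1.5 CPM. Nox4, which did not pass in the dwarfs, was at 32.3 to 50.8 CPM against 6.31 to 7.49 CPM. These stocks differ and were not tested against each other. Of 24 male-biased genes known from textbooks 22 were tested and 19 fell, 0 rose. Obp2a, an odorant-binding protein that is also on the male-biased list from UM-HET3 mice, had 0 counts in every dwarf and was at least 320-fold lower. Dct, an enzyme of melanin synthesis that is on neither male-biased list, had 0 counts in every dwarf as well and was at least 394-fold lower. On total counts Dct was at 3.35 to 11.5 CPM in UM-HET3 females and 1.62 to 5.74 CPM in UM-HET3 males.

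Some female-specific genes that the control males hardly expressed rose steeply, and others stayed silent. Cyp2b13 (GRCm38 chr7:26061497-26096197), a cytochrome P450, was at 454, 724 and 822 CPM in the dwarfs and 0.188, 0.118 and 1.07 CPM in the controls (10.47 ± 0.66, adjusted p = 0.000226). Cyp2a4, a testosterone hydroxylase, was at 155, 86.8 and 70.3 CPM against 0.816, 1.47 and 0.772 CPM (6.66 ± 0.44). Cyp2a22 was at 364, 501 and 467 CPM against 0.879, 0.883 and 1.60 CPM (8.62 ± 0.27, adjusted p = 5.65e-07). Of 26 female-biased textbook genes 18 were tested and 14 rose, 0 fell. The other 8 failed the filter on low counts, and 7 of them (Prom1 aside, which was low in every library) were expressed in UM-HET3 females yet at or near 0 in the dwarfs; the values that follow are scaled to total counts.

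The genes that stayed silent included the female-specific Cyp3a genes, cytochromes P450 of steroid and drug oxidation. Cyp3a41a had 0 counts in all dwarfs and controls and was at 138 to 470 CPM in UM-HET3 females, and Cyp3a41b had 0 counts likewise against 23 to 95.8 CPM. Cyp3a16 was at most 0.0539 CPM in the dwarfs against 48.6 to 155 CPM in those females, and Cyp3a44 at most 0.313 CPM against 280 to 483 CPM. These near-identical copies may share reads. Sult3a1, a sulfotransferase, was at most 0.125 CPM in the dwarfs against 250 to 458 CPM. A1bg was at most 0.17 CPM against 29.7 to 195 CPM, and Cux2, a female-specific transcription factor of liver, at most 0.567 CPM against 6.2 to 16.2 CPM. In these genes the dwarfs stood near their own controls and far below the females, which come from another stock; the difference was not tested.

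The Sult2a genes, sulfotransferases for steroids and bile acids, split. Sult2a2 was at 80.3, 159 and 59.2 CPM in the dwarfs with no count in any control, at least 1581-fold higher, and Sult2a5 was at 81.1, 202 and 61.6 CPM, at least 1810-fold higher. Their levels on total counts, 56.6 to 157 CPM for Sult2a2 and 58.9 to 199 CPM for Sult2a5, stood beside 56.3 to 80.5 CPM and 8.79 to 16.9 CPM in UM-HET3 females. Sult2a6 was at 15.8, 46.5 and 10.0 CPM in the dwarfs, a ratio of 1132 (counting interval 203 to 44747), and UM-HET3 females held at most 0.228 CPM on total counts. Sult2a1 rose less, to 5.75, 30.4 and 4.91 CPM, a ratio of 317 (87.4 to 2621), whereas UM-HET3 females held 177 to 221 CPM. Sult2a8, named after its values were seen, fell instead, from 976, 1031 and 863 CPM in the controls to 172, 275 and 106 CPM in the dwarfs, and the family's summed share fell from 0.086% to 0.104% in the controls to 0.0246% to 0.0767%. Sult1e1, which sulfates oestrogens, was at 115, 45.8 and 13.1 CPM against 0.126, 0.118 and 0 CPM (9.36 ± 1.49, adjusted p = 0.0149). The Sult2a copies are similar in sequence and their counts may be split between them. The calls for Sult2a2 and Sult2a5 were lost without dwarf 1, for Sult2a6 without control 3, and for Sult2a1 and Sult1e1 without any 1 control.

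Esr1, the oestrogen receptor alpha, named after its values were seen, fell. It was at 0.829, 1.59 and 1.13 CPM against 13.5, 18.5 and 14.8 CPM (-3.73 ± 0.25, adjusted p = 4.29e-05). The groups did not overlap.

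Several genes that thyroid hormone drives fell. Of 15 listed targets 14 were tested: 7 fell, 1 rose and 6 did not pass, with a median log2 fold change of -0.70. Dio1 (GRCm38 chr4:107291465-107307169), the deiodinase that activates thyroxine and the most used liver marker of thyroid status, was at 0.387, 1.27 and 0.282 CPM in the dwarfs and 176, 96.3 and 108 CPM in the controls. The groups were far apart, with a log2 fold change of -7.64 ± 0.51 (adjusted p = 0.000247). Thrsp (Spot14), a regulator of lipid synthesis, was at 31.3, 54.6 and 17.9 CPM against 344, 552 and 608 CPM (-3.86 ± 0.47, adjusted p = 0.00335). Me1, the cytosolic malic enzyme that supplies NADPH for lipid synthesis, was at 49.5, 49.6 and 41.6 CPM against 273, 315 and 336 CPM (-2.72 ± 0.14, adjusted p = 9.39e-06). Gpd2, the mitochondrial glycerol-phosphate dehydrogenase, fell less, at 16.8, 24.9 and 19.1 CPM against 47.7, 36.4 and 39.0 CPM (-1.02 ± 0.17, adjusted p = 0.00451).

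Klf9, Bcl3 and Fasn fell by 1.30, 1.44 and 1.27 on the log2 scale. Ppargc1a, the coactivator that drives mitochondrial and gluconeogenic genes, rose, at 120, 41.3 and 30.7 CPM against 5.97, 9.89 and 6.71 CPM (3.09 ± 0.63, adjusted p = 0.0263), and lost its call without any 1 control. Without dwarf 1, control 1 or control 2, 5 of the targets fell rather than 7: Klf9 lost its call without dwarf 1 or control 1, Fasn without dwarf 1 or control 2, and Bcl3 without dwarf 3 or any 1 control. Cyp7a1, which starts the classic route of bile acid synthesis, was at 260, 162 and 138 CPM against 55.5, 146 and 57.3 CPM and did not pass (adjusted p = 0.151).

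Genes that carry, transport and clear thyroid hormone moved both ways. Of 20 listed, 18 were tested: 7 rose, 4 fell and 7 did not pass. Serpina7, the thyroxine-binding globulin of plasma, was at 301, 369 and 234 CPM in the dwarfs and 39.2, 39.7 and 29.0 CPM in the controls (3.07 ± 0.20, adjusted p = 4.29e-05). Slco1a4, an organic anion transporter that takes up thyroid hormone, was at 442, 246 and 417 CPM against 37.6, 46.3 and 30.3 CPM (3.27 ± 0.27, adjusted p = 0.000233). Its paralog Slco1a1, which male liver expresses, went the other way, at 3.21, 2.67 and 21.1 CPM against 874, 757 and 947 CPM (-6.57 ± 1.03, adjusted p = 0.0138), and lost its call without control 1. Slc16a10 (MCT10), another transporter, rose by 1.24 on the log2 scale. The receptors moved little: Thra rose by 0.60 on the log2 scale and Thrb, the main hepatic form, was at -0.33 ± 0.11 (adjusted p = 0.0574). The sulfotransferase Sult1a1 rose by 1.44 and the glucuronosyltransferase Ugt1a1 by 1.40, the latter not without control 2 or control 3.

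Many genes of lipid synthesis fell. Of 23 lipogenic genes, all tested, 13 fell, 2 rose and 8 did not pass, with a median log2 fold change of -0.90 (9 to 13 fell with each library left out in turn, fewest without control 2; 0 rose without control 1 or control 2). Acacb, the acetyl-CoA carboxylase that makes malonyl-CoA at mitochondria, was at 15.4, 20.9 and 11.9 CPM in the dwarfs and 109, 97.4 and 147 CPM in the controls (-2.87 ± 0.24, adjusted p = 0.000249). Acss2, which activates acetate, was at 94.1, 96.9 and 95.2 CPM against 275, 248 and 367 CPM (-1.64 ± 0.16, adjusted p = 0.000286). Mlxipl (ChREBP), the carbohydrate-responsive regulator of lipogenesis, fell by 1.36 ± 0.12 on the log2 scale. Fatty acid synthase, Fasn, was at 279, 195 and 385 CPM against 525, 743 and 803 CPM, and the desaturase Scd1 at 2596, 2048 and 4887 CPM against 5842, 9401 and 9477 CPM (-1.38 ± 0.36, adjusted p = 0.037); Scd1 lost its call without dwarf 1, dwarf 2, control 2 or control 3.

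Lpl, Vldlr and Scd2, each named after its values were seen, rose. Lpl, lipoprotein lipase, was at 495, 235 and 344 CPM in the dwarfs and 18.1, 21.9 and 12.1 CPM in the controls (4.37 ± 0.36, adjusted p = 0.000427). Vldlr, the VLDL receptor, was at 64.6, 42.4 and 90.2 CPM against 0.942, 0.942 and 2.08 CPM (5.63 ± 0.43, adjusted p = 0.00037). Scd2, the desaturase of brain and fetal liver, was at 290, 141 and 156 CPM against 5.97, 5.00 and 3.92 CPM (5.30 ± 0.36, adjusted p = 0.000189). Of the adipose markers, Adipoq and the other defining genes failed the filter and Fabp4 alone was tested. It was at 10.6, 15.2 and 17.1 CPM against 4.58, 5.18 and 8.32 CPM (1.24 ± 0.27, adjusted p = 0.0142, lost without control 1 or control 2). The summed adipose markers held 201 to 303 counts in each dwarf and 74 to 140 in each control. Nearly all of these were counts of Fabp4, which held 734 over the dwarfs and 301 over the controls. The part of adipose RNA in the rises of Lpl, Vldlr and Scd2 was not tested.

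Fatty acid oxidation moved by smaller steps. Of 34 genes, all tested, 14 rose, 1 fell (Ppara) and 19 did not pass, with a median log2 fold change of 0.39. Acadm, the medium-chain acyl-CoA dehydrogenase, was at 558, 575 and 625 CPM in the dwarfs and 293, 280 and 314 CPM in the controls (0.99 ± 0.11, adjusted p = 0.000795). Hadh, the short-chain hydroxyacyl-CoA dehydrogenase, rose by 0.81 ± 0.13. Vnn1, a pantetheinase and target of PPARalpha, was at 8.24, 3.81 and 8.63 CPM against 0.691, 0.412 and 0.356 CPM (3.81 ± 0.42, adjusted p = 0.000593). The count of 14 was 12 without dwarf 1 and 4 without control 1, and Ppara lost its call without dwarf 3 or any 1 control. In cholesterol synthesis 5 of 24 genes fell, among them Nsdhl (-1.65 ± 0.27) and Mvd (-1.04 ± 0.18), and 1 rose. Between 4 and 9 of them fell with a library left out in turn, most without dwarf 2.

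Of 24 genes of bile acid metabolism and transport 22 were tested: 5 rose, 6 fell and 11 did not pass, with 3 that rose without control 1 or control 3. Cyp7b1 fell as given above, and Cyp27a1, a sterol hydroxylase, fell from 530, 497 and 509 CPM to 245, 233 and 182 CPM (-1.22 ± 0.14). Cyp39a1, the hydroxylase for 24-hydroxycholesterol, rose from 5.15, 6.53 and 5.94 CPM to 81.0, 69.9 and 37.0 CPM (3.41 ± 0.31, adjusted p = 0.000545). Abcc4, an exporter on the blood side of hepatocytes, rose from 1.26, 1.71 and 1.84 CPM to 17.8, 11.1 and 14.0 CPM (3.15 ± 0.24, adjusted p = 9.1e-05), and its relative Abcc3 rose by 1.46 ± 0.23. Scp2, the sterol carrier protein and peroxisomal thiolase, fell from 5884, 5401 and 5239 CPM to 1749, 1992 and 2245 CPM (-1.47 ± 0.14).

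Many genes of xenobiotic metabolism rose. Of 38 genes, all tested, 21 rose, 5 fell and 12 did not pass, with a median log2 fold change of 0.78 (17 to 22 rose and 1 to 4 fell with each library left out in turn, fewest of the latter without control 1). This list shares members such as Cyp2b9, Cyp2b10, Cyp2b13 and Fmo2 with the female-biased textbook list. Cyp2c38, a P450 of the Cyp2c family, was at 236, 190 and 146 CPM in the dwarfs and 5.40, 8.54 and 7.60 CPM in the controls (4.73 ± 0.25, adjusted p = 1.65e-05). Fmo2 was at 37.3, 30.8 and 34.5 CPM against 3.96, 4.59 and 4.46 CPM (2.98 ± 0.13, adjusted p = 6.51e-06). Ugt2b5, a glucuronosyltransferase, fell by 1.53 ± 0.13. Nr1i3 (CAR), a nuclear receptor for drugs, rose by 1.64, but not without control 1 or control 2.

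Of 36 listed NRF2 targets and glutathione genes, 32 were tested: 13 rose, 4 fell and 15 did not pass, and 8 rose and 2 fell without control 1. Mgst3, a microsomal glutathione transferase, was at 25.8, 26.3 and 37.3 CPM in the dwarfs and 7.66, 6.89 and 11.8 CPM in the controls (1.76 ± 0.24, adjusted p = 0.00198). Nqo1 rose by 1.29 on the log2 scale and Cbr1 by 0.81, while Gclm, which limits glutathione synthesis, fell by 0.61 (not without control 1). Metallothioneins, which bind zinc and copper, rose steeply with 1 animal ahead. Mt1 was at 454, 1562 and 455 CPM against 6.78, 17.2 and 11.2 CPM (6.13 ± 0.78, adjusted p = 0.00605), and Mt2 at 196, 912 and 189 CPM against 1.26, 5.59 and 2.08 CPM (7.17 ± 1.12, adjusted p = 0.0143, lost without control 1 or control 3). Dwarf 2 was the highest library for Mt1, Mt2, Igfbp1, Sult2a2 and Sult2a5, an observation made after the values were seen.

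Of 20 genes of gluconeogenesis and glycogen 7 rose, 1 fell and 12 did not pass (4 rose without control 1 or control 2). Ugp2, which makes UDP-glucose, was at 998, 807 and 743 CPM in the dwarfs and 316, 300 and 347 CPM in the controls (1.40 ± 0.15, adjusted p = 0.000465), and Gys2, the liver glycogen synthase, rose by 1.05 ± 0.19. Ppp1r3g, a phosphatase subunit that activates glycogen synthase, was at 63.3, 29.9 and 27.5 CPM against 0.314, 0.942 and 0.594 CPM (6.00 ± 0.52, adjusted p = 0.00075). Pygl, the liver glycogen phosphorylase, fell by 1.09 ± 0.14. In the citric acid cycle 6 of 21 genes rose and 2 fell, led by mitochondrial Idh2 at 414, 390 and 464 CPM against 82.9, 65.2 and 103 CPM (2.34 ± 0.18, adjusted p = 8.94e-05); without dwarf 1, control 1 or control 3 none fell.

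Some enzymes of methionine and sulfur amino acid use rose. Of 26 listed 25 were tested: 6 rose and 1 fell. Mat1a, the liver enzyme that makes S-adenosylmethionine, was at 7061, 7601 and 6740 CPM in the dwarfs and 1908, 2197 and 2123 CPM in the controls (1.78 ± 0.13, adjusted p = 6.77e-05). Ahcy, which clears S-adenosylhomocysteine, rose by 1.10 ± 0.15, and Cth, the last step of transsulfuration, by 1.45 ± 0.20. Csad, which leads to taurine, fell from 104, 131 and 179 CPM to 8.07, 8.25 and 9.70 CPM (-3.99 ± 0.22, adjusted p = 1.8e-05). Of 29 genes of the urea cycle and amino acid breakdown 7 rose, such as Hpd (0.92 ± 0.14), and 1 fell; 3 rose without control 2, and the fall of the 1 member was lost without dwarf 1, dwarf 3 or any 1 control.

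Many complement and coagulation genes fell. Of 33 complement and coagulation genes, all tested, 15 fell, 0 rose and 18 did not pass, with a median log2 fold change of -0.48 (12 to 14 fell with a library left out in turn). C8a, a subunit of the membrane attack complex, was at 18.3, 19.5 and 33.2 CPM in the dwarfs and 877, 925 and 742 CPM in the controls (-5.16 ± 0.27, adjusted p = 1.62e-05). C6, of the same complex, was at 12.8, 7.36 and 13.4 CPM against 323, 267 and 216 CPM (-4.58 ± 0.27, adjusted p = 4.29e-05), and C9 fell by 3.63 on the log2 scale. C4a, the copy of complement C4 that male liver expresses, was at 2.82, 3.62 and 1.86 CPM against 239, 163 and 234 CPM (-6.26 ± 0.28, adjusted p = 8.73e-06). C4a, C6 and C9 are also on the male-biased textbook list. They, C8a and C8b are on the male-biased list from UM-HET3 mice, and C8b fell by 2.40 on the log2 scale. Clotting factor XI, F11, fell by 2.65 ± 0.15. Plasma proteins in general did not move one way: 7 of 30 rose and 5 fell, among them Agt, angiotensinogen, from 333, 292 and 272 CPM to 1086, 1530 and 1276 CPM (2.12 ± 0.16, adjusted p = 9.19e-05).

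Many interferon-response genes fell. Of 34 listed 31 were tested: 18 fell, 2 rose and 11 did not pass, with a median log2 fold change of -0.80; 14 fell without dwarf 1 and 6 without control 1. Iigp1, an immunity-related GTPase, was at 44.7, 36.3 and 34.7 CPM in the dwarfs and 204, 201 and 137 CPM in the controls (-2.22 ± 0.18, adjusted p = 0.000133). Ifi27 was at 17.0, 15.7 and 24.5 CPM against 81.6, 61.3 and 51.4 CPM (-1.76 ± 0.23, adjusted p = 0.00176), and the transcription factor Stat2 fell by 0.77 ± 0.12. Usp18, which restrains the same pathway, rose, at 27.5, 22.7 and 15.4 CPM against 5.53, 3.94 and 2.97 CPM (2.40 ± 0.28, adjusted p = 0.00117). By the same test 0 of 12 Kupffer cell and macrophage markers passed (2 fell without dwarf 1), and their sum was given above. Of 12 lymphocyte markers 5 were tested, Cd4 falling and Cd79b rising, each call lost without dwarf 2 or dwarf 3 among others; the part of these cells in the interferon genes was not tested.

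Many chaperones of the endoplasmic reticulum fell. Of 20 genes, all tested, 13 fell, 0 rose and 7 did not pass, with a median log2 fold change of -0.66 (10 to 15 fell with a library left out in turn). Sdf2l1 was at 4.20, 7.30 and 5.36 CPM in the dwarfs and 39.2, 23.2 and 26.6 CPM in the controls (-2.40 ± 0.26, adjusted p = 0.000861). Hyou1, a large Hsp70-like chaperone, was at 99.3 to 107 CPM against 217 to 240 CPM (-1.12 ± 0.10, adjusted p = 0.00025). The protein disulfide isomerase Pdia6 fell by 1.48 ± 0.19 and Hspa5 (BiP), the main chaperone of the compartment, by 0.85 on the log2 scale. Of 18 cytosolic and mitochondrial heat shock genes 17 were tested, 6 fell and 1 rose, with Hsph1 down by 1.18 ± 0.16; 2 fell without control 1.

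Subunits of the respiratory chain and of the ribosome lay slightly higher in the dwarfs, in small steps whose calls depended on single controls. Of 65 nuclear-encoded respiratory subunits, all tested, 28 rose, beside 9.34% of all genes tested, and 0 fell, with a median log2 fold change of 0.40. In 48 the dwarfs lay above every control, beside 19.9% of all genes tested. Sdhb of complex II, one of those with the smallest p, was at 355, 371 and 366 CPM against 246, 243 and 270 CPM (0.52 ± 0.11, adjusted p = 0.0111, lost without control 1 or control 2). The count was 35 without dwarf 1 but 0 without control 2. Of 53 ribosomal proteins 13 rose and 0 fell, with a median of 0.36, a count of 20 without dwarf 1 and 0 without control 1 or control 2. Of 31 proteasome subunits 29 did not pass; Psmd2 and Psmd14 fell by 0.36 and 0.34 on the log2 scale, and neither call held without dwarf 1 or any 1 control.

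Some genes of fetal liver rose from near 0 in the controls. Of 16 listed fetal and imprinted genes 12 were tested: 6 rose, 0 fell and 6 did not pass, with a median log2 fold change of 1.67. H19 (GRCm38 chr7:142575529-142578143, minus strand), the imprinted non-coding RNA, was at 100, 55.8 and 12.0 CPM in the dwarfs and 0, 0 and 0.0594 CPM in the controls. Its ratio was 2746 (counting interval 493 to 108507), and the dwarfs themselves spread widely, dwarf 1 high and dwarf 3 low. Spink1, a trypsin inhibitor, was at 34.3, 34.4 and 5.75 CPM against 0.126, 0.0589 and 0 CPM, a ratio of 398 (136 to 1935). Gpc3, a glypican of fetal liver, was at 11.7, 4.06 and 3.83 CPM against 0.126, 0.471 and 0.416 CPM (4.24 ± 0.64, adjusted p = 0.00415). Cdkn1c, an imprinted inhibitor of the cell cycle, rose by 2.60 ± 0.27 and Igf2, the fetal growth factor, by 2.02 ± 0.49. Between 2 and 7 members rose with each library left out in turn, 2 of them without control 1 and 4 without dwarf 1; H19 lost its call without any 1 control, Spink1 without control 1, and Igf2 without dwarf 1 or any 1 control.

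Of 18 clock genes tested 3 rose (1 to 3 with a library left out in turn, fewest without dwarf 3, control 1 or control 2), and Clock fell by 1.23 ± 0.15. Of 21 cell cycle genes tested 2 rose, near the 9.34% of all genes, and neither rose without dwarf 2, dwarf 3, control 2 or control 3. The 1 that fell was E2f8, a regulator of liver polyploidy, at 0.111, 0.127 and 0.113 CPM against 2.64, 3.12 and 1.37 CPM (-4.27 ± 0.49). Of 17 iron and heme genes, all tested, 1 rose, 2 fell and 14 did not pass, near the shares of all genes tested. Slc40a1 (ferroportin) fell by 1.28 ± 0.17 on the log2 scale and Slc11a2 by 0.75. Fth1 rose by 0.50 ± 0.14, a call lost without dwarf 2, dwarf 3 or control 2. Hamp2, a copy of the hepcidin gene named after its values were seen, did not pass (adjusted p = 0.946). It was at 2385, 2224 and 2314 CPM in the dwarfs and 1959, 4.47 and 3978 CPM in the controls, with control 2 far below the rest. The erythroid gene Alas2 fell from 259, 253 and 239 CPM to 36, 32 and 57.2 CPM (-2.59 ± 0.22, adjusted p = 0.000185). Alas2 was the 1 erythroid marker of 5 tested that passed, and it is also on the male-biased list from UM-HET3 mice. The 7 erythroid markers together were at 120 to 299 CPM in the dwarfs and 351 to 455 in the controls. Alas2 is part of this sum, at 31.5 to 54.6 CPM on total counts in the dwarfs and 238 to 266 CPM in the controls. The lower sum is therefore not an observation apart from the fall of Alas2. Among the pancreas markers Cela1 alone was tested and fell, from 78.0, 69.5 and 73.1 CPM to 6.47, 8.57 and 7.67 CPM (-3.28 ± 0.13). Of 10 markers of liver sinusoidal endothelium and 10 of stellate cells 0 passed. In the remaining lists 2 of 16 glycolytic genes rose and 2 fell (0 and 1 without control 1). Of 18 selenium and antioxidant genes tested 6 rose and 3 fell (3 and 1 without control 1, and 3 rose without control 2). Of 21 acute-phase genes 2 rose and 3 fell, with 7 that rose without dwarf 3 and 1 that fell without any 1 control. Of 23 autophagy and lysosome genes 5 rose and 4 fell.

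The dwarf allele sits on chromosome 16, and in an F2 cross its neighbours travel with it. Within 20 Mb of Pou1f1, 19 of 66 genes tested changed (28.8%, 9 up and 10 down) beside 20.1% of all genes. The share was 22.9% within 10 Mb, 21.3% within 40 Mb and 18.5% over the whole chromosome. The genes there with the largest changes were named after their values were seen. Robo1 (GRCm38 chr16:72308306-73046095), an axon guidance receptor, was at 33.2, 22.7 and 33.4 CPM in the dwarfs and 3.01, 1.47 and 1.49 CPM in the controls (3.91 ± 0.30, adjusted p = 0.000156). BC016579 was at 2.32, 2.6 and 1.75 CPM against 0.0628, 0 and 0 CPM, a ratio of 108 (counting interval 19 to 4295). Strain origin of the segment and genotype cannot be told apart in these groups.

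Letters of the STAT5 site stood in the promoters of genes that changed at shares near that of all genes tested. The sequence TTCNNNGAA, which reads the same on both strands, was searched in the 250 bases before each RefSeq start site (GRCm38.p6), which the table lists for 9608 of the 12528 genes tested. It occurred in 6.06% of the 12344 promoters of genes tested, in 4.63% of those of genes that rose and in 5.37% of those of genes that fell, beside 7.02% of all promoters in the table. For genes that rose and fell at least 4-fold the shares were 6.86% and 5.31%. With the 50 bases after the start included they were 9.71% and 5.31%, beside 6.95% for genes tested. Among the genes that carry it were Igfals and C8a, both far lower in the dwarfs, Agt, which was higher, and Wipi1, an autophagy gene that fell by 1.08 ± 0.17. Their matches are shown in capitals with flanking bases, since the same letters stand before genes that moved in opposite directions. A match is a description of sequence, not a site. Igfals has 2 such starts of 3 listed, the nearer match beginning 58 bases before its start at chr17:24878128-24878214 (plus strand) and the other in chr17:24877594-24877655. C8a is shown at chr4:104876573-104876648, Agt at chr8:124569825-124569923 and Wipi1 at chr11:109611494-109611592, all on the minus strand.
Igfals, nearer start: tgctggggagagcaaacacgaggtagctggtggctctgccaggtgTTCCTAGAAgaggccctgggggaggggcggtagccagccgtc
Igfals, other start: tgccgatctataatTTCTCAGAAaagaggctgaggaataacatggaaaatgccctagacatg
C8a: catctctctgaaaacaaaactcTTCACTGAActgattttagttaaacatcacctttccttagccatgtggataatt
Agt: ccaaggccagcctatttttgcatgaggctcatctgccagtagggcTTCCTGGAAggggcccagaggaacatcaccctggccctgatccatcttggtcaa
Wipi1: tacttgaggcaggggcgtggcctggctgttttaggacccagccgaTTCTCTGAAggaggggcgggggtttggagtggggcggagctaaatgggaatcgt

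The DR4 element, a direct repeat of AGGTCA with 4 bases between the copies, bound by thyroid hormone receptors, was matched on neither strand in those 12344 promoters and in 0.0152% of all promoters in the table. TGACNNNGC, the core of the NRF2 site, stood on either strand in 11.6% of promoters of genes tested, 11.1% of those of genes that rose and 11.2% of those of genes that fell, beside 10.2% of all promoters. A TATA-type run, TATATAA on either strand, was searched after the values were seen: it stood in 78.6% of 14 Mup promoters, 3.04% of all promoters, 1.28% of promoters of genes tested and, Mup genes aside, 1.5% of promoters of genes that fell. It is shown in capitals for Mup9, 31 bases before its start (GRCm38.p6 chr4:60421953-60422028, minus strand), as letters that most Mup promoters share.
Mup9: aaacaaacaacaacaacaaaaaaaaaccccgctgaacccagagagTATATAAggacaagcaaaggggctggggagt

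The dwarfs lack several pituitary hormones, and the study also holds a mutant that lacks the growth hormone receptor alone: 3 male GHRKO mice of 5 months and 3 littermate controls from a cross of C57BL/6J and BALB/cByJ. Each mutant was set against its own controls in a fit of all 12 libraries, and the difference of the effects was tested. Of 13105 genes tested, 152 differed (1.16%), 55 with a higher (0.42%) and 97 with a lower (0.74%) change in Snell dwarfs, and 1577 had an unadjusted p under 0.05. In that fit 2869 genes changed in Snell dwarfs and 2296 in GHRKO mice. Of these 1358 changed in both, 47.3% of the first and 59.1% of the second, 1338 in the same direction and 20 in opposite directions. The count of 152 was 97 without dwarf 1, 70 without dwarf control 1, 85 without dwarf control 2, 72 without GHRKO replicate 2 and 89 without GHRKO control 2.

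The growth hormone targets fell in both mutants. Igf1 fell by 4.89 ± 0.28 on the log2 scale in Snell dwarfs and by 6.06 ± 0.29 in GHRKO mice, a difference of 1.16 ± 0.34 that did not pass (adjusted p = 0.172). Igfals fell by 4.89 and 5.05, and the difference was 0.16 ± 0.50 (adjusted p = 0.937). Ghr, the gene disrupted in GHRKO mice, fell by 2.92 there and by 0.60 in Snell dwarfs, and this difference passed (2.32 ± 0.24, adjusted p = 0.000368). Male-pattern genes fell in both, with differences at some: Mup1 fell by 10.55 in Snell dwarfs and by 6.16 in GHRKO mice (adjusted p = 5.57e-05 for the difference), whereas Susd4 had a log2 fold change of -5.41 in GHRKO mice and -1.98 in Snell dwarfs (adjusted p = 0.000173), and C8b one of -4.01 and -2.41 (adjusted p = 0.00864).

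The steepest falls among the thyroid hormone targets were not seen in GHRKO mice. Me1 fell by 2.72 ± 0.21 in Snell dwarfs, and GHRKO mice were at 195, 273 and 197 CPM against 246, 268 and 152 CPM in their controls, with a difference of effects of -2.72 ± 0.28 (adjusted p = 0.000361). Dio1 was at -7.65 ± 0.82 in Snell dwarfs and 0.25 ± 0.55 in GHRKO mice, a difference of -7.90 ± 0.98 (adjusted p = 0.00857). Thrsp was at -3.86 and 0.47 (difference -4.34 ± 0.77, adjusted p = 0.0333), and Gpd2 at -1.02 and 0.26 (difference -1.28 ± 0.24, adjusted p = 0.0206). These were the 4 of 14 targets whose effects differed. The median effect over the list was -0.71 in Snell dwarfs and 0.18 in GHRKO mice. In lipogenesis 5 of 23 genes had a lower effect in Snell dwarfs (Me1, Thrsp, Acss2, Acacb and Elovl5), and the medians were -0.91 and -0.00. For the interferon list the medians were -0.80 and 0.19, yet 0 of 33 members passed the test of the difference.

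**Figure D5:**
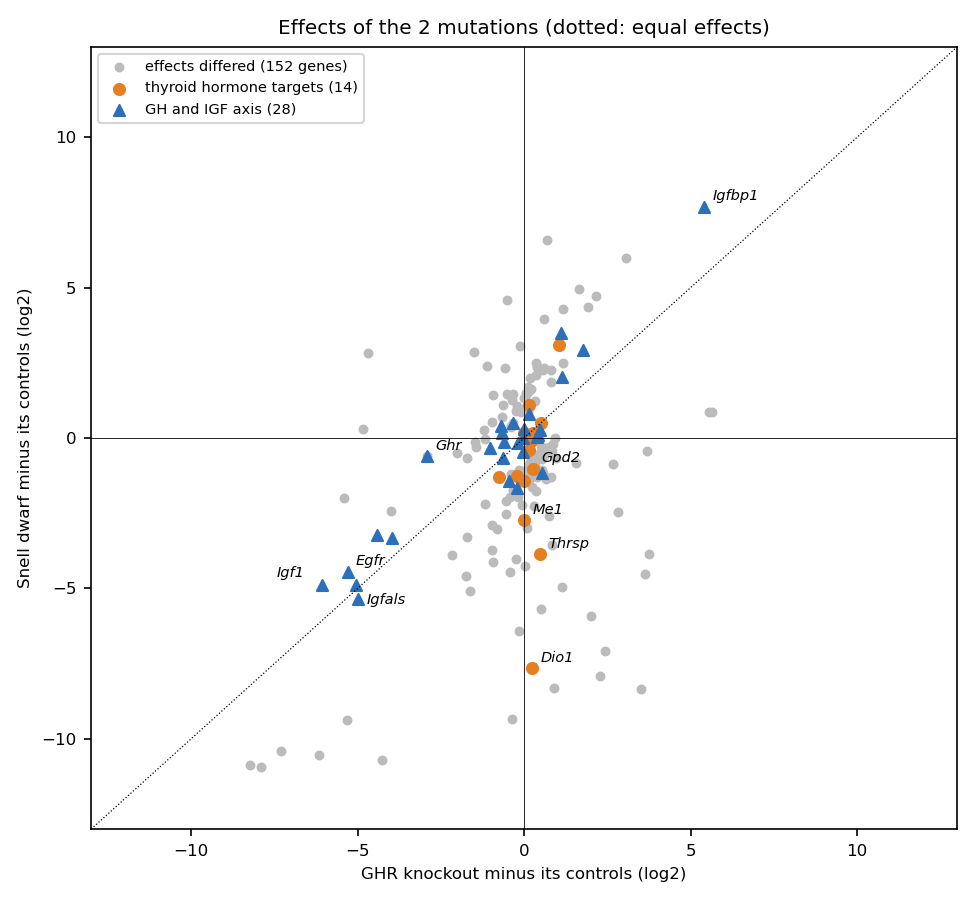
Log2 change in GHRKO mice (x axis) and in Snell dwarfs (y axis), each against its own controls, for the 152 genes whose effects differed (grey), the thyroid hormone targets (orange) and the growth hormone and IGF axis (blue). Dio1, Thrsp and Me1 lie far below the dotted line of equal effects; Igf1 and Igfals lie near it.

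Other genes with the smallest p for the difference were not on these lists. Cyp2f2, a P450, was at 114, 81.6 and 49.3 CPM in the Snell dwarfs, 1472, 1521 and 1280 CPM in their controls, and 675, 676 and 718 CPM in GHRKO mice against 1260, 1418 and 1293 CPM in theirs (difference -3.19 ± 0.32, adjusted p = 0.000272). Tlcd2 fell by 2.58 in Snell dwarfs and rose by 0.74 in GHRKO mice (adjusted p = 0.000258), and Uck1, a uridine kinase, fell by 1.07 and rose by 0.54 (adjusted p = 0.000361). Cyp4a32, a fatty acid hydroxylase, rose by 2.26 in Snell dwarfs and by 0.81 in GHRKO mice (adjusted p = 0.00211). Ahnak rose by 1.25 in Snell dwarfs and was at -0.35 ± 0.17 in GHRKO mice (adjusted p = 0.00775). Cyp17a1, a steroid hydroxylase named after its values were seen, rose by 5.63 in GHRKO mice and was at 0.85 ± 0.40 in Snell dwarfs (difference -4.78 ± 0.58, adjusted p = 0.00482).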

How the data were processed

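Liver RNA of 78 mice was sequenced by the authors as paired 100 bp reads. Per the submitters' processing notes, the tools were bcl2fastq 1.8.4, Trimmomatic 0.32, STAR 2.5.2b and featureCounts 1.5 with mm10/GRCm38; the annotation release and strand setting are not given in the sources used here, so reads of overlapping or antisense genes may be mixed. The authors deposited raw read counts per gene, with no normalization. Groups follow the labels. Genes were placed with GENCODE vM21, which named 42462 of 43629 identifiers.

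Changes were tested with edgeR 4.0.16 in R 4.3.3 (TMM, filterByExpr, robust quasi-likelihood test, Benjamini-Hochberg adjustment), fitted to the 6 libraries, or to 12 for the comparison with GHRKO mice; DESeq2 1.42.0 was an alternative, and others are in the closing section. The design text calls the 3 samples of a group biological replicates; p-values measure the spread between them. A fold against a group with no counts is a bound from 3 counts over the group; with 1 to 3 counts an exact 95% counting interval is given, which covers counting error only. The common biological coefficient of variation was 0.195.

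Genes were named by rule: up to 12 per direction by fold change (adjusted p under 0.05, mean log2 CPM of at least 2, no overlap, no predicted, RIKEN or pseudogene names), up to 4 per list by p, 6 genes always, and up to 5 per direction for the difference from GHRKO mice. Further list members were added after their values were seen. Standard errors are the log2 fold change divided by the square root of the F statistic. The members and lists were chosen with earlier results of these data known. Replicate numbers do not pair dwarfs with controls. Some results that name items withheld for evaluation are not reported here.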

Additional observations from a re-analysis of the deposited data

Results flagged for a closer look

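The effects of the Snell and GHRKO mutations, each against its own controls, differed for 152 of 13105 genes by edgeR's test of the difference itself (Benjamini-Hochberg adjusted p under 0.05). The change was higher in Snell dwarfs for 55 genes and lower for 97. The mutants came from different crosses, so the strain background and the mutation cannot be told apart in this difference.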

How the results depend on the processing

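Of the changed genes in Snell dwarfs, 2520 in all, the count was 2528 with DESeq2's size factors, 2542 without the filter, 2698 with DESeq2 and 2869 in the 12-library fit. Same-numbered dwarfs and controls deviated together with correlations of 0.126, -0.136 and 0.0972, so the numbers give no pairing; with a replicate block the count was 2127. With each library left out in turn, 1263 to 2487 genes changed, 540 to 1159 up and 723 to 1328 down. A minimum of 2-fold left 1102 genes, 556 up and 546 down. Of the 155 genes named by rule none reversed, and 8 to 33 lost their call without 1 library, 11 without the filter, 9 with the block and 2 with DESeq2. For the difference from GHRKO mice, DESeq2 called 366 genes (123 higher, 243 lower), the block 107 (34 higher), and leaving out 1 library 70 to 174 (17 to 57 higher, 50 to 120 lower). The 10 genes named from that test held under all settings run. Textbook lists gave 19 male-biased genes that fell and 14 female-biased that rose, and a 4-fold minimum 25 female-biased that rose; near Pou1f1, 8 genes changed within 10 Mb and 49 within 40 Mb. The cause of these shifts was not tested, beyond the smaller lists, windows and groups that the settings impose.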
